A study of Mus musculus with 12 samples.

Results

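Genes of the presynaptic release apparatus, 8 in number, were examined for RNA sites bound by the splicing regulator SLM2. They are the tomosyn genes Stxbp5l and Stxbp5, the RIM genes Rims1 and Rims2, the active zone scaffolds Pclo and Bsn, and the CAPS genes Cadps and Cadps2. A peak was assigned to a gene when its centre lay within the gene's annotated span and on its strand (mm10, GENCODE vM21). By this rule the 8 genes held 31 of the 2235 peaks in the 2 deposited lists, 29 of 2057 from whole brain and 2 of 178 from hippocampus.

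SLM2 binding was measured by enhanced cross-linking and immunoprecipitation (eCLIP), in which UV light links protein to RNA, the protein is precipitated and the attached RNA fragments are sequenced. The groups were whole brain and hippocampus of wild-type mice aged 30 days, each represented by 2 replicate eCLIP libraries and 2 inputs, an input being RNA of the same size range taken before precipitation. Frozen tissue powder was irradiated in 3 exposures of 400 mJ/cm2, and a lysate came from a whole brain or from pooled hippocampi. A further 2 eCLIP and 2 input libraries came from Slm2 KO hippocampus and were not analysed here. Each tissue had 1 list in which both replicates were already merged, so no value below has a spread between replicates and intervals cover counting error only. The intervals treat peaks as independent, which neighbouring peaks of a gene are not, so they are too narrow. The lists give no read counts, so the depth behind each peak is unknown. They also hold no expression level, so a gene without a peak cannot be told apart from a gene with little RNA in the sample. Tissue and library depth cannot be told apart either.

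SLM2 (KHDRBS3) is a STAR-family RNA-binding protein of neuronal nuclei that binds U- and A-rich elements, among them UAAA and UUAA, and regulates inclusion of alternative exons. Tomosyns bind syntaxin-1 and SNAP-25 and restrain assembly of the SNARE complex that fuses vesicles with the plasma membrane. RIM proteins, Piccolo (Pclo) and Bassoon (Bsn) are large scaffolds of the active zone, where vesicles dock next to calcium channels, and CAPS proteins act in vesicle priming.

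Of the 4 whole-brain peaks centred within 500 nt of an exon of Stxbp5l, the tomosyn-2 gene, 3 are shown first, to give the sequence bound next to its exons. Sequences are given 5′ to 3′ as RNA on the minus strand of mm10, with UAAA and UUAA in capitals. The first lies upstream of exon 20 (chr16:37186999-37187169) and the other two downstream of exon 21 (chr16:37173974-37174048 and chr16:37173770-37173892). Exons are numbered along transcript Stxbp5l-206, the coding transcript with the most exons (28). The optional exons 20 (chr16:37186651-37186722) and 22 (chr16:37142276-37142446) follow.
Stxbp5l peak upstream of exon 20: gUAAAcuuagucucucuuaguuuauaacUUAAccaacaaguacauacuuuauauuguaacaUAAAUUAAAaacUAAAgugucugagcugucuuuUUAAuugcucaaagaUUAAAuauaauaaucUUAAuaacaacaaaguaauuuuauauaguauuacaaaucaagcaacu
Stxbp5l peak 286 nt downstream of exon 21: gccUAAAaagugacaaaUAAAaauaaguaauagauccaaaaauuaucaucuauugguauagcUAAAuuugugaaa
Stxbp5l peak 466 nt downstream of exon 21: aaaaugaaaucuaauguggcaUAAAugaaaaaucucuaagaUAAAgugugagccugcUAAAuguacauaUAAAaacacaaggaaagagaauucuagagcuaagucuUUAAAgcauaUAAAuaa
Stxbp5l exon 20: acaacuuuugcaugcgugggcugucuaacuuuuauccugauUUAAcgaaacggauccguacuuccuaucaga
Stxbp5l exon 22: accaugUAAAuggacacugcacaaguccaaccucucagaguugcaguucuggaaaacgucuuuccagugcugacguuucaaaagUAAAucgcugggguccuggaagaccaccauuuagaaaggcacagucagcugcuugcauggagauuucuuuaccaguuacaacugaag

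The strongest peaks of the other genes and the only hippocampal peaks are shown for comparison with those of Stxbp5l. They are the hippocampal peak of Stxbp5l (chr16:37145295-37145442, minus strand), the top peak of Rims1 (chr1:22772438-22772598, minus), of Rims2 (chr15:39561801-39561845, plus), the peak of Pclo (chr5:14603993-14604166, plus) and the whole-brain (chr14:12399231-12399386, minus) and hippocampal (chr14:12401522-12401624, minus) peaks of Cadps. The Rims2 peak holds no UAAA or UUAA, and the 3 copies in the Pclo peak all lie near its 3′ end.
Stxbp5l hippocampal peak: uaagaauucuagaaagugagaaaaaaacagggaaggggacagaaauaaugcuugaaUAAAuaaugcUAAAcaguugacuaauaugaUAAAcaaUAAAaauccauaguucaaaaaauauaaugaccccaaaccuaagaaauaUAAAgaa
Rims1 whole-brain peak: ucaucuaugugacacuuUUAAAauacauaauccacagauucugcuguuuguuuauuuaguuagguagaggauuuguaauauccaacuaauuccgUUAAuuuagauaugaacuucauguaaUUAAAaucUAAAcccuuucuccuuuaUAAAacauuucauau
Rims2 whole-brain peak: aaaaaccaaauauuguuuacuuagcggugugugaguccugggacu
Pclo whole-brain peak: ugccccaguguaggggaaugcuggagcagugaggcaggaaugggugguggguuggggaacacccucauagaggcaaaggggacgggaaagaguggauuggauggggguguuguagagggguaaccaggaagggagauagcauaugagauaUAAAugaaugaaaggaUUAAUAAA
Cadps whole-brain peak: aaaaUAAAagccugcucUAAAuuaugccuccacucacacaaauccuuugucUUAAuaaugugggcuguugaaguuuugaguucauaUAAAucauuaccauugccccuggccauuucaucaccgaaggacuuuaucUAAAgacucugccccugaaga
Cadps hippocampal peak: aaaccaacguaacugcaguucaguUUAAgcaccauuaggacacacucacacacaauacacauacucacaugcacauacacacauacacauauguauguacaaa

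A whole-brain peak was found in 5 of the 8 genes. Stxbp5l had 14, Rims1 had 7, Rims2 had 6, and Pclo and Cadps had 1 each. Stxbp5, Bsn and Cadps2 had none in either list, although Cadps2 is the longest of the 8 genes at 576.6 kb and Bsn the shortest at 94.4 kb. Among all 21951 annotated protein-coding genes, 1.92% had a whole-brain peak. Among the 2656 coding genes at least as long as Bsn, 11.9% had one. In hippocampus 2 of the 8 genes, Stxbp5l and Cadps, held 1 peak each. The corresponding shares were 0.378% of all coding genes and 2.48% of those at least as long as Bsn. The genes were selected with earlier results of these lists known, so these shares are given as background and not as a test.

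The longest gene did not hold the most peaks. Relative to length, Stxbp5l had 5.18 whole-brain peaks per 100 kb, Rims1 had 1.35, Rims2 had 1.23, Pclo had 0.287 and Cadps had 0.222. Of the 421 coding genes with a whole-brain peak, 33 had at least as many peaks as Stxbp5l, itself included, and 42 had at least its number per 100 kb. For Rims1 these counts were 58 and 162, and for Rims2 they were 66 and 178. Peaks of a gene often lay side by side. Joining peaks separated by no more than 1000 nt left 8 separate sites in Stxbp5l, 4 in Rims1 and 4 in Rims2, and 18 in all for the 29 peaks.

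Peak strength is given as the log2 fold change of eCLIP over size-matched input that the authors computed, and their lists begin at 2. Peaks of the 8 genes had a median of 2.63 in whole brain, against 2.56 for the whole list. Their median −log10 p for eCLIP against input was 4.39, and their median length 118 nt, against 4.32 and 106 nt for the whole list. Among the 2057 whole-brain peaks, a log2 fold change of 3.12 (a Rims1 peak) ranked at position 367. One of 2.99 (the Cadps peak) ranked at position 476. Of the 29 peaks of the 8 genes, 10 had a log2 fold change of at least 3, and 5 of these were among the 14 of Stxbp5l. By the ranks above, at least 367 and fewer than 476 of all 2057 whole-brain peaks reached 3. All but the peak in Pclo had their centre in an intron of every gene that holds it, which gives 28 of 29, or 96.6% (exact 95% binomial interval 82.2 to 99.9%). The whole list had 1948 of 2057, or 94.7% (93.6 to 95.6%).

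Stxbp5l (ENSMUSG00000022829.14; chr16:37114942-37384962, minus strand, 270.0 kb) is annotated with 10 transcripts. All 14 whole-brain peaks lay in introns 19 to 22 of Stxbp5l-206, between 73.3% and 90.0% of the way along the gene. These 4 introns make up 18.1% of the intronic sequence of that transcript (48.2 kb), and the other 23 introns, together 217.4 kb, held no peak. Intron 19 held 1 peak, intron 20 held 4, intron 21 held 8 and intron 22 held 1. The 4 introns had 2.03 UAAA or UUAA starts per 100 positions, and the other introns had 1.68.

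**Figure D1:**
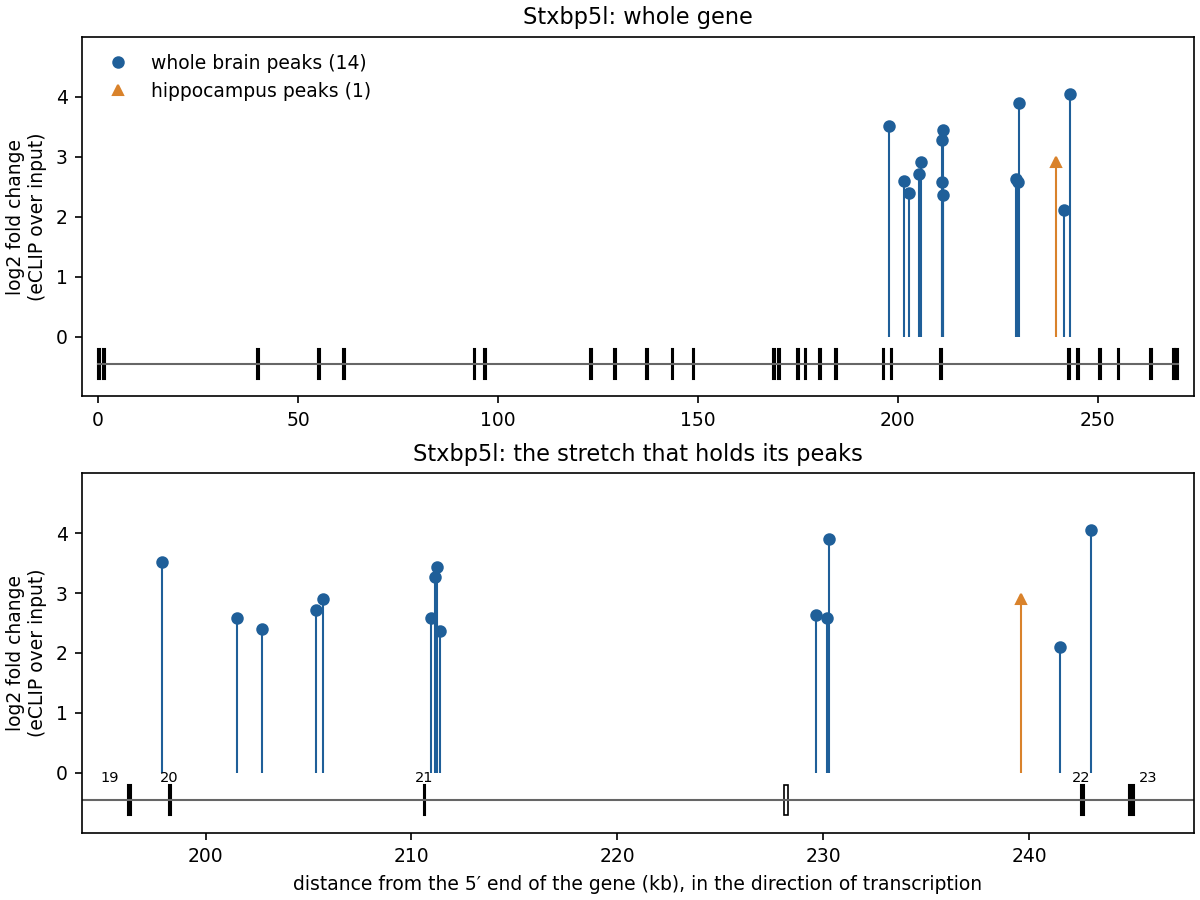
SLM2 peaks along Stxbp5l. The x axis is the distance from the 5′ end of the gene in kb and the y axis the log2 fold change of eCLIP over input; circles are the 14 whole-brain peaks, the triangle is the hippocampal peak, black boxes are the exons of transcript Stxbp5l-206 and the open box is the 93-nt exon between exons 21 and 22. The upper panel shows the whole gene, whose first 19 exons precede every peak, and the lower panel the stretch around exons 19 to 23.

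The strongest peak of Stxbp5l had a log2 fold change of 4.05, a −log10 p of 17.1 and a −log10 IDR of 2.72. IDR is the irreproducible discovery rate, a measure of how well both replicates rank a peak alike. The peak ranked at position 33 of the 2057 whole-brain peaks by fold change. Its centre lay in intron 22 (2192 nt), 308 nt downstream of exon 22 and 1885 nt upstream of exon 23. Exon 22 is 171 nt long and is present in 2 of the 4 coding transcripts that span it.

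The number of this exon depends on the transcript. It is exon 22 in Stxbp5l-206 and exon 21 in Stxbp5l-205 and in the retained-intron transcript Stxbp5l-201, whereas the coding transcripts Stxbp5l-203 and Stxbp5l-204 lack it. In RefSeq it is present in 2 of 4 curated and 9 of 9 predicted transcripts. Upstream of the exon, in intron 21, a weaker peak (chr16:37143425-37143527) had a log2 fold change of 2.11 and a centre 1030 nt from the exon. That peak window nevertheless had the highest density of UAAA and UUAA of the 14, at 9.18 starts per 100 positions, against 2.55 in its flanks.

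A row of 4 peaks lay directly after exon 21, a 66-nt exon (chr16:37174297-37174362) present in all 4 coding transcripts that span it. Their centres were 286, 466, 580 and 701 nt downstream of the exon, and their log2 fold changes in that order were 2.57, 3.27, 3.44 and 2.36. The third of them (chr16:37173680-37173754) had a −log10 p of 8.18 and, at 3.57, the highest −log10 IDR of the 14 peaks. Within 496 nt these peaks covered 361 nt. Exon 21 is numbered 20 in the transcripts without exon 20, Stxbp5l-203, Stxbp5l-205 and Stxbp5l-201.

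A peak in intron 19 (1846 nt; chr16:37186999-37187169) had a log2 fold change of 3.52 and a −log10 p of 3.66. Its centre lay 362 nt upstream of exon 20 and 1485 nt downstream of exon 19. Exon 20 is 72 nt long and is present in 2 of the 4 coding transcripts that span it, Stxbp5l-206 and Stxbp5l-204. In RefSeq it is present in 2 of 4 curated and 6 of 9 predicted transcripts. It was the only exon of the gene with a peak centre less than 500 nt upstream.

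The other 4 peaks of this stretch lay deep in intron 20 (12288 nt), on the other side of exon 20. Their centres were 3220, 4422, 7029 and 7402 nt downstream of exon 20, and their log2 fold changes in that order were 2.59, 2.40, 2.72 and 2.90. The last of them was also the closest to exon 21, 4887 nt upstream of it. None of the 4 therefore lay near an annotated exon, and none reached a log2 fold change of 3.

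A group of 3 peaks lay together in the middle of intron 21 (31850 nt), 12227 to 12885 nt upstream of exon 22. They started at positions 37155301, 37154726 and 37154623, and their log2 fold changes in that order were 2.63, 2.58 and 3.90. The last is the second strongest of the gene and ranked at position 59 of the whole-brain list. Upstream of all 3 lies a 93-nt exon (chr16:37156752-37156844) that no coding transcript in GENCODE includes. In GENCODE it is the last exon of the processed transcript Stxbp5l-209, and in RefSeq it is present in 0 of 4 curated and 8 of 9 predicted transcripts. The peak centres lay 1421, 1956 and 2079 nt downstream of it. No pair of neighbouring coding exons of Stxbp5l was annotated in GENCODE as mutually exclusive, meaning that each occurs in a transcript but never both in the same one.

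**Figure D2:**
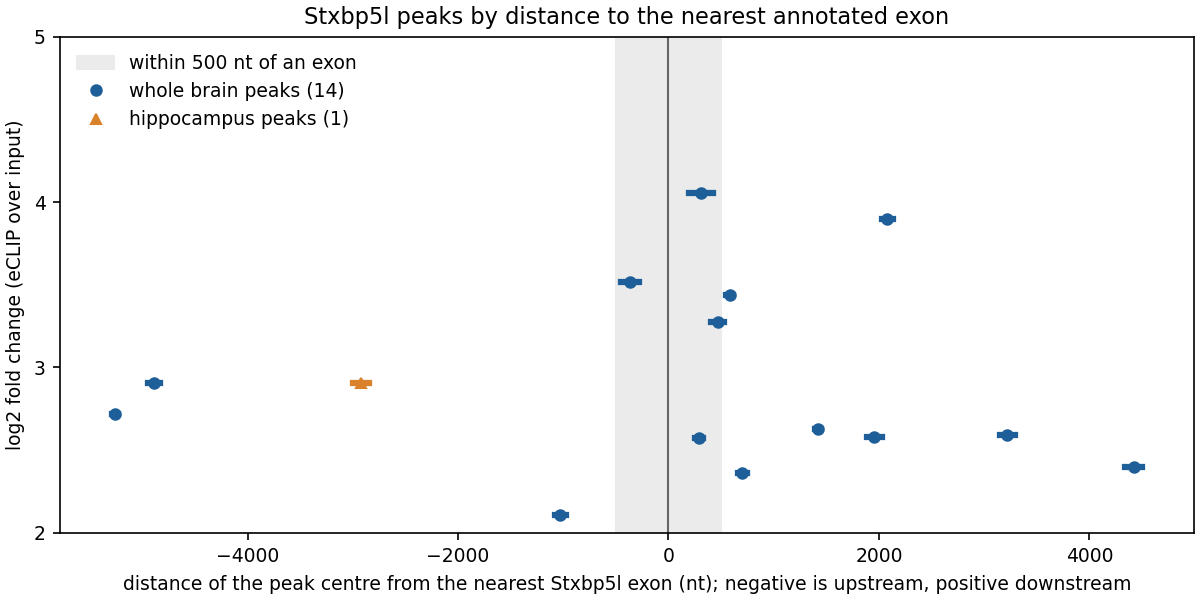
Distance of Stxbp5l peaks from the nearest exon. The x axis is the distance in nt of the peak centre from the nearest annotated exon of the gene, negative upstream and positive downstream, the y axis is the log2 fold change, and horizontal bars are peak lengths. Of the 14 whole-brain circles, 4 lie in the grey band within 500 nt, 1 upstream and 3 downstream, and the strongest peak is among them.

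Thus 4 of the 14 Stxbp5l peaks had a centre within 500 nt of an exon of the gene, 3 downstream and 1 upstream. Those 286 and 466 nt downstream of exon 21 belong to the same row of 4 peaks, which forms 1 joined site. Of the intronic bases of Stxbp5l, 10.8% lie within 500 nt of an exon. In the whole-brain list 109 of 1948 intronic peaks, 5.6%, had a centre within 500 nt of an exon, and 76, or 3.9%, lay downstream of it. Of the other 15 whole-brain peaks of the 8 genes, none lay within 500 nt of an exon of its own gene. Widening the distance to 1000 nt gave 6 of 14, but the shares of intronic bases and of the whole list within 1000 nt were not counted.

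The hippocampal peak of Stxbp5l (chr16:37145295-37145442) had a log2 fold change of 2.90, a −log10 p of 1.89 and a −log10 IDR of 3.18, and ranked at position 44 of 178. It lay in intron 21, 2922 nt upstream of exon 22, and shared no base with a whole-brain peak. How many of all 178 hippocampal peaks share a base with a whole-brain peak was not counted. The nearest whole-brain peak was 1768 nt away, on the exon 22 side. Its window had 4.08 UAAA or UUAA starts per 100 positions, against 1.53 in its flanks.

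Rims1 (ENSMUSG00000041670.16; chr1:22286251-22805994, minus strand, 519.7 kb), which encodes the RIM1 scaffold that binds Rab3 and Munc13, had 7 whole-brain peaks at 4 sites. The introns are numbered along Rims1-205, which has 37 exons. A row of 3 peaks lay in intron 1, 33043, 33209 and 33385 nt downstream of the nearest exon, with log2 fold changes of 3.66, 3.17 and 2.57 in that order. The first of these had a −log10 p of 8.33 and, at 3.60, the highest −log10 IDR of the 29 whole-brain peaks. Another peak in intron 1 had a log2 fold change of 2.23.

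Intron 21 of Rims1, only 4150 nt long, held 2 peaks with log2 fold changes of 3.12 and 2.51. Their centres lay 1982 nt downstream of exon 21 and 1723 nt upstream of exon 22. Exon 21, a 70-nt exon, is present in 5 of the 6 coding transcripts that span it, and exon 22 in all 6. This intron had 3.04 UAAA or UUAA starts per 100 positions, against 1.51 over all introns of the gene. Intron 31 held the last peak, with a log2 fold change of 3.29, which lay 12588 nt from the nearest exon. Introns 1 and 31, which held the other Rims1 peaks, had 1.49 and 1.5 UAAA or UUAA starts per 100 positions. No hippocampal peak lay in Rims1.

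Rims2 (ENSMUSG00000037386.16; chr15:39198261-39684372, plus strand, 486.1 kb) encodes the paralogous scaffold RIM2. Its 6 whole-brain peaks all lay in intron 19 of Rims2-201, between 70.6% and 74.8% of the way along the gene. This intron is 30961 nt long and makes up 6.47% of the intronic sequence of that transcript. It had 2.22 UAAA or UUAA starts per 100 positions, and the other 25 introns had 1.63. Both exons that border it are present in all 4 coding transcripts that span them.

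In order along intron 19 of Rims2 the log2 fold changes were 2.81, 2.61, 2.31, 2.25, 2.34 and 3.40. The second peak (chr15:39541445-39541731, 287 nt) was the longest of the 29 and had a −log10 p of 10.1 and 12 UAAA or UUAA starts. The last was the strongest by fold change, and also the shortest of the 29 at 45 nt, with a −log10 p of 3.44. Its centre lay 5120 nt upstream of exon 20, and no Rims2 peak was closer to an exon. The order by fold change and by −log10 p therefore differed in this gene.

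Pclo (ENSMUSG00000061601.15; chr5:14514918-14863459, plus strand), the Piccolo gene, had 1 whole-brain peak, with a log2 fold change of 2.26 and a −log10 p of 3.53. It lay in intron 3 (128163 nt) of Pclo, 63278 nt from the nearest Pclo exon. Its centre also fell in an exon of Gm42444, a gene on the same strand annotated as TEC, the class for loci that await experimental support, so the peak cannot be assigned to Pclo alone. The peak was 50.0% A and U, the second lowest share of the 29 after a Stxbp5l peak at 41.5%. Intron 3 of Pclo had 1.72 UAAA or UUAA starts per 100 positions, and the other introns of that gene had 1.88. Bsn, which encodes the related scaffold Bassoon, had no peak. Its introns were the poorest in UAAA and UUAA, with 0.751 starts per 100 positions against 1.21 to 1.82 in the other 7 genes. Stxbp5 and Cadps2, which also had no peak, had 1.55 and 1.47, whereas Cadps, with a peak in each tissue, had 1.21. A relation between intron density and the absence of peaks was not tested.

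Cadps (ENSMUSG00000054423.14; chr14:12372563-12823079, minus strand), which encodes CAPS1, had 1 peak in each tissue, and both lay in intron 27 (34844 nt). That intron had 1.26 UAAA or UUAA starts per 100 positions, and the other introns had 1.2. The whole-brain peak had a log2 fold change of 2.99, a −log10 p of 10.3 and a −log10 IDR of 3.49. The hippocampal peak had a log2 fold change of 2.24, a −log10 p of 0.921 and a −log10 IDR of 2.66. They shared no base, being 2136 nt apart, and the share of such peaks in the whole hippocampal list was not counted. The hippocampal centre also fell in an exon of Gm48267, another same-strand gene of the same annotation class as Gm42444. The 2 hippocampal peaks of the 8 genes thus both had a −log10 p below 2, as did 95 of the 178 peaks of that list.

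**Figure D3:**
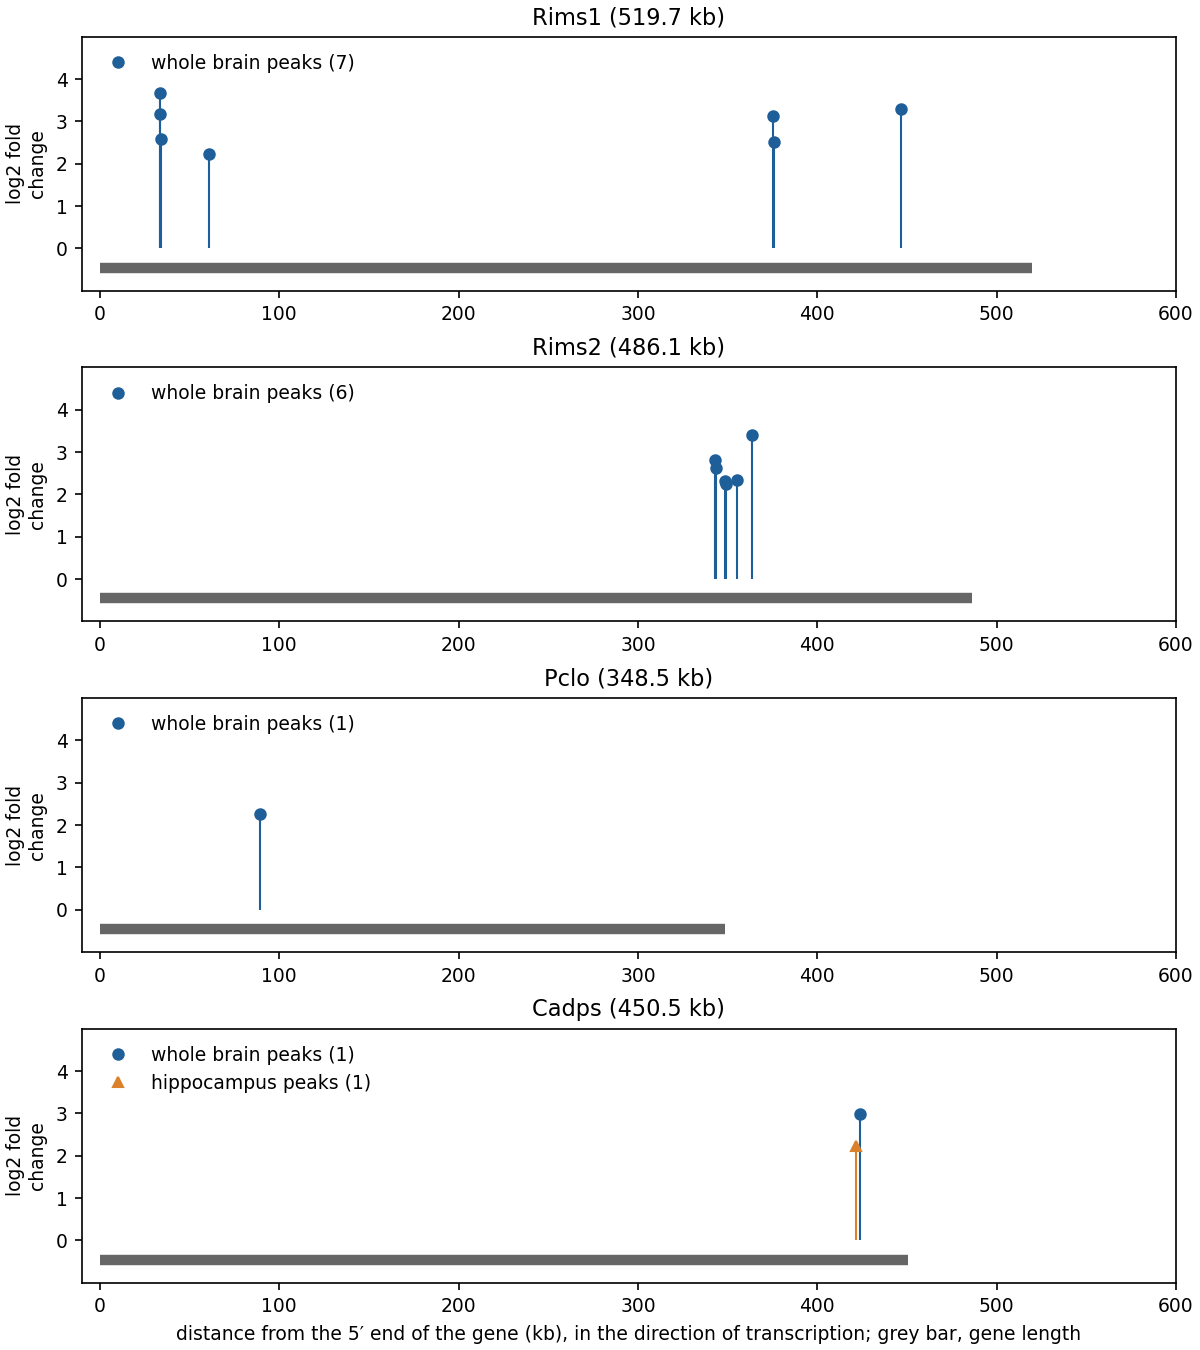
SLM2 peaks along Rims1, Rims2, Pclo and Cadps. The x axis is the distance from the 5′ end of each gene in kb and the y axis the log2 fold change of eCLIP over input; circles are whole-brain peaks, the triangle is the hippocampal peak of Cadps and grey bars are gene lengths. The 7 peaks of Rims1 are spread over 3 introns, the 6 of Rims2 lie together in 1, and both Cadps peaks lie near the 3′ end.

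Density of UAAA and UUAA was counted as motif starts per 100 positions within 50 nt of each peak centre, and in 2 flanking windows of the same size centred 500 nt away. The 29 whole-brain peaks had a mean of 4.40, against 2.32 in their flanks. The density was higher in the peak than in its flanks for 20 peaks, or 69.0%. Over the whole list the means were 3.59 at peaks and 1.80 in flanks, and 66.5% of peaks were above their flanks. At least 1 UAAA or UUAA was found in 27 of 29 windows (93.1%) and in 77.6% of their flanking windows. For the whole list these shares were 83.6% and 67.3%, so such short motifs were common in flanks too.

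Rims1 peaks stood highest, with 4.96 starts per 100 positions against 1.75 in their flanks, and all 7 were above their flanks. Stxbp5l peaks had 4.88 against 2.62, with 10 of 14 above, and the introns of the gene had 1.74. Rims2 peaks had 3.74 against 2.81, with only 2 of 6 above. The Pclo window had none, as had its flanks, and the whole-brain peak of Cadps had 2.04 against 1.53. The mean difference between peak and flanks was 3.21 in Rims1 and 2.26 in Stxbp5l, against 0.935 in Rims2.

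**Figure D4:**
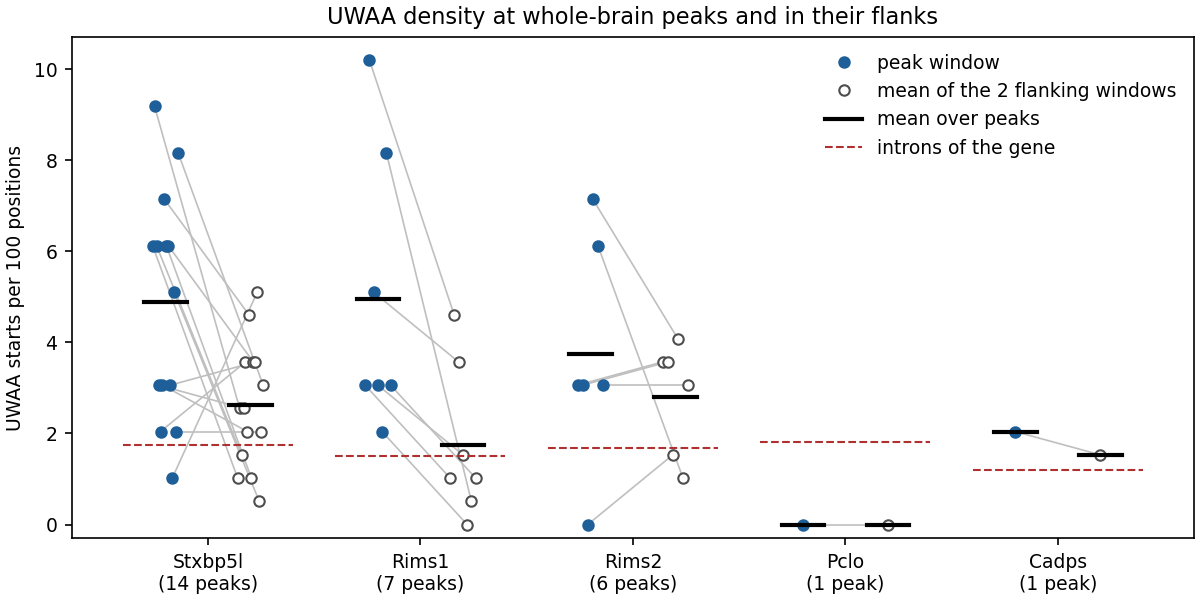
Density of UAAA and UUAA at whole-brain peaks. The y axis is motif starts per 100 positions; for each gene, filled circles are peak windows, open circles the mean of the 2 flanking windows of the same peak, black bars the means over peaks and dashed lines the density over the introns of the gene. All 7 Rims1 peaks and 10 of 14 Stxbp5l peaks lie above their flanks, against 2 of 6 Rims2 peaks.

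A longer element, UUAAAAA or UUUAAAA, was also counted in the same windows. Both forms contain UUAA, so they are a subset of the sites above. It occurred in 13 of the 29 windows (44.8%) and in 17.2% of their flanking windows. In the whole list it occurred in 18.9% of peak windows and 8.41% of flanking windows. Of the 13 windows, 6 were in Stxbp5l, 3 in Rims1 and 4 in Rims2. The peaks of the 8 genes were also richer in A and U than the list, with a median of 70.4% against 65.5%, and 20 of 29 windows (69.0%) had over 20% repeat-masked bases, against 50.9% of the list. In the 8 peaks of these genes with at most 20% masked bases in the peak window and in at least 1 flank, density of UAAA and UUAA exceeded that of flanks by 2.49 starts per 100 positions, against 2.08 over all 29. The part of base composition in these motif counts was not tested, nor that of repeats in the counts of the longer element.

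The share of each list that a gene takes was compared between whole brain and hippocampus with a two-sided Fisher's exact test, adjusted by Benjamini-Hochberg over the 510 genes with a peak in either list. Stxbp5l took 0.681% of whole-brain peaks (14 of 2057; exact 95% interval 0.373 to 1.14%) and 0.562% of hippocampal peaks (1 of 178; 0.0142 to 3.09%). Rims1, with 7 peaks, took 0.34% of the whole-brain list and Rims2, with 6, took 0.292%, and neither had a hippocampal peak. Cadps took 0.0486% of whole-brain peaks and 0.562% of hippocampal peaks, at an unadjusted exact p = 0.153. Adjusted p was 1 for every one of the 5 genes with a peak, so no difference between tissues was detectable in this number of peaks. Over all genes 6 of 510, 1.18%, passed an adjusted p of 0.05, and each of these had a larger share in hippocampus. None of the 6 had a whole-brain peak. Because the hippocampal list is so much shorter, a gene without hippocampal peaks would need very many whole-brain peaks to pass. The shared direction is therefore not read as a difference between tissues. Peaks of a gene are not independent of each other, so these p-values are too small.

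Of 36 further genes of docking, priming and release, among them the Munc13, liprin, syntaxin, complexin and Rab3 genes, only Syt1 and Snap25 held a peak. Syt1, the calcium sensor of fast release, had 55 whole-brain peaks with log2 fold changes up to 4.50, and 6 hippocampal peaks up to 3.20. At its whole-brain peaks UAAA and UUAA had 4.01 starts per 100 positions, against 2.02 in flanks. Snap25, which encodes a plasma membrane SNARE, had 2 in whole brain with log2 fold changes of 2.15 and 2.38, and at these the density was 3.06 against 3.83. The other 34 genes had no whole-brain peak. Of the 36, 14 are at least as long as Bsn, and 1 of these 14, Syt1, had a whole-brain peak. Among all coding genes of at least that length the share was 11.9%. A difference between the 36 genes and these shares was not tested.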

How the data were processed

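Reads were processed by the authors with cutadapt 3.4 for trimming, STAR 2.7.9 for mapping to mm10 and UMI-tools 1.1.1 against duplicates, versions per the submitters' processing notes. Peak calling used CLIPper as in the ENCODE workflow for eCLIP. The authors merged both replicates of a tissue by IDR, at thresholds of 2 for log2 fold change and −log10 IDR. The deposited lists have no header. Their columns were read as the log2 fold change of eCLIP over input, the −log10 p of that comparison and a −log10 IDR score, all computed by the authors, from the column names of the study's peak table. Positions were read as 0-based starts and are given 1-based.

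Peaks were matched by centre and strand to GENCODE vM21, and sequence came from the RefSeq GRCm38.p6 genome with lower-case repeats (Python 3.11.15, pandas 2.3.3, scipy 1.17.1, samtools 1.23.1). Motif windows were 101 nt and all were kept, masked or not; 6 of the 58 flanking windows of the 8 genes held another peak. No peak of the 8 genes held 10 nt or more of the sequencing adaptor, against 19 whole-brain peaks of the list. Counting, distances and Fisher's test were tested on simulated data.

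The genes, the list of further release genes and the motifs were chosen with earlier results of these data known. All 8 genes are named, other release genes where they hold a peak, and sequences for the strongest peak of each gene and tissue and Stxbp5l peaks within 500 nt of an exon. Of these sequences, 1 is not reported here. The longer motif was chosen after the data were seen. Alternatives changed 1 choice at a time.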

Additional observations from a re-analysis of the deposited data

How the results depend on the processing

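Of 36 alternatives tried, 25 left a count within 1.5 times its value or a density difference within that range. No density difference changed sign, and counts have no direction to reverse. Leaving out adaptor-like peaks could not change a count, because no peak of the 8 genes held 10 nt of adaptor. Raising the minimum log2 fold change to 3 left the 8 genes 10 whole-brain peaks in 3 genes and 0 hippocampal peaks in 0 genes. With a −log10 IDR of at least 3, they had 4 whole-brain peaks in 3 genes and 1 hippocampal peak in 1 gene. The shares of the whole lists left at these thresholds were not counted. With a −log10 p of at least 2, all 29 whole-brain peaks stayed, but no peak of that list lies below 2, so none could be removed. In hippocampus, where 95 of the 178 peaks of the list lie below 2, 0 peaks in 0 genes were left. Averaged over genes in place of peaks, the density of UAAA and UUAA at whole-brain peaks exceeded that of flanks by 1.38 per 100 positions, against 2.08 over peaks, and under the other window choices by 1.58 to 2.50. With at most 20% masked bases in the peak window and at least 1 flank, 8 peaks were left and the difference was 2.49. None of the 5 genes with a peak was called between tissues under any alternative of Fisher's test. Stxbp5, Bsn and Cadps2 had no peak and were not tested, and requiring at least 5 peaks also left out Pclo and Cadps. Counts as small as the 7 against 0 of Rims1 could not be called in lists of these sizes. The absence of a call therefore does not show that the tissues are alike. No paired analysis was possible because each tissue has 1 merged list with no column per replicate, and for the same reason no replicate could be left out.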
